A study of Zea mays with 74 samples.

Results

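The selective sweeps between teosinte and modern maize were the 1330 regions, of 4060 in the table, that carried the comparison teosinte against maize. The table also held 1355 sweeps between teosinte and landraces and 1375 between landraces and modern maize. No measured value entered the choice. The study asked which parts of the maize genome carry signs of recent selection and whether regions that differ in DNA methylation between populations lie in them. Whole-genome sequencing (WGS) was made on 20 plants of teosinte, Zea mays ssp. parviglumis, grown in the greenhouse and sampled at the third leaf of the seedling. The modern maize side was published WGS of inbred lines, and the sample sheet of the study lists 14 such lines. The 17 landrace plants entered only the other comparisons.

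Some limits of these groups bear on every value below. The teosinte plants came from 1 natural population of an outcrossing wild plant, and the modern lines are inbred and include B73, whose genome is also the reference. Each sweep is 1 call between 2 populations, so there is no value per plant and no error between plants. The sweeps of the 3 comparisons also share plants, and their values stand side by side here without a test. Teosinte was sequenced for this study, whereas the modern maize reads, both WGS and bisulfite, came from earlier projects. Population and source of the data therefore cannot be told apart. Depth stands in none of the region tables, so its part in any call was not tested.

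When a variant is favoured, the neighbouring sequence is carried to high frequency with it, and variation is lost in a block around the site. The block reaches farther where crossing over is rare. In maize, crossing over is concentrated toward the chromosome ends and is rare in the wide regions around the centromeres, so a long sweep there can hold many genes with no sign of which one was selected. XP-CLR, the cross-population composite likelihood ratio, scores how far allele frequencies in a window differ between populations in the way a sweep would produce. A high score is a strong frequency shift over linked sites and does not name a gene.

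The teosinte–maize sweeps covered 332 Mb, which was 15.8% of 2105427221 bp, the sum over the 10 chromosomes of the largest B73 AGPv4 position in the region tables. The methods merged windows in the 10% tails of the scores and then kept a smaller fraction as outliers. That outlier fraction is far below the covered share, and how it was applied to merged windows is not clear. The covered share is therefore that of the deposited sweeps and not of a known tail of the scores. Every sweep started and ended on a step of 5 kb and none was shorter than 50 kb, the window length that the methods state. The lengths were strongly skewed. The mean length was 250 ± 461 kb (SD over 1330 sweeps), against a median of 130 kb with a 95% interval of 125 to 140 kb. The middle 50% of sweeps lay between 85 and 235 kb, and the upper 10% began at 505 kb. The 480 sweeps of at most 100 kb were 36.1% of the sweeps and 10.7% of their sequence. At the other end, 46 sweeps were longer than 1 Mb, and the 172 longest sweeps made up 50% of the sweep sequence.

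The covered share differed little between the comparisons, and the make-up of that share differed more. The methods cut sweeps from the tails of the scores. A cut made within each comparison would by itself give near-equal covered shares, so these are not read as a result. The covered share was 15.8% for teosinte against modern maize, 15.9% for teosinte against landraces and 15.5% for landraces against modern maize. The 10 longest sweeps held 12.3%, 9.05% and 7.77% of the sweep sequence in these comparisons, in the same order. The median length was 130 kb in the teosinte–maize comparison and 145 kb in each of the other comparisons, where the 95% intervals of 135 to 155 kb for teosinte–landrace and 135 to 150 kb for landrace–maize overlapped the 125 to 140 kb of teosinte–maize. The teosinte–maize set thus held both more sweeps of at most 100 kb and more sequence in its longest ones. The 480 sweeps of at most 100 kb compare with 444 in each of the other sets, and the longest sweep of 9545 kb with 8740 kb for teosinte against landraces and 3990 kb for landraces against modern maize.

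**Figure D1:**
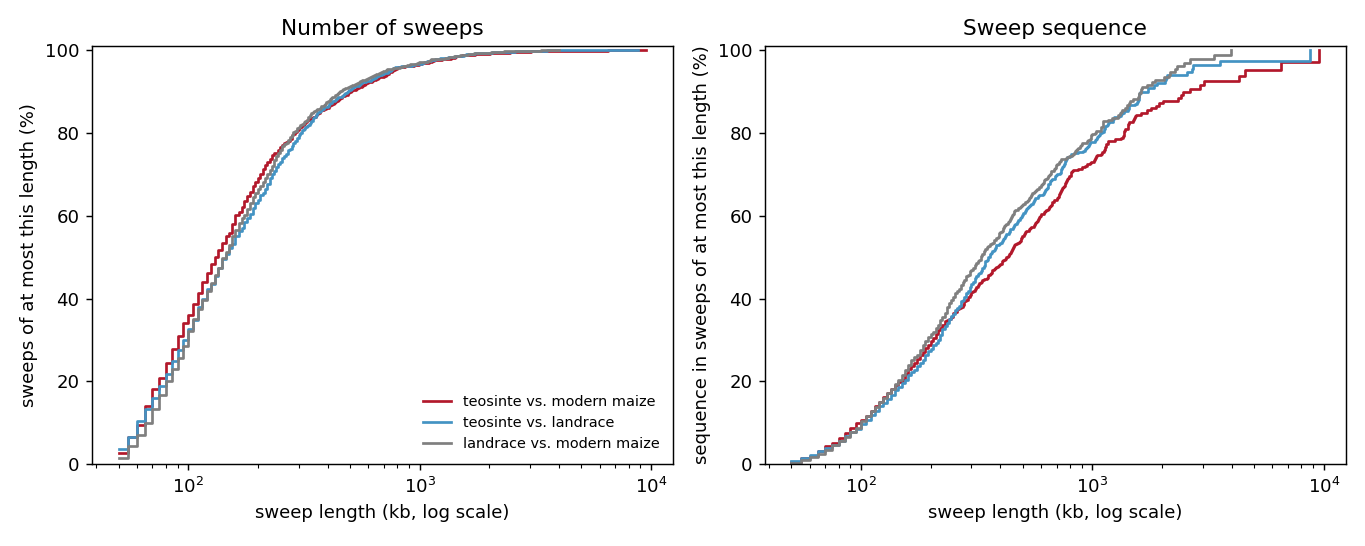
Cumulative percentage of sweeps (left) and of sweep sequence (right) in sweeps of at most the length on the x axis (kb, log scale), 1 line per comparison. The teosinte–maize line is the highest of the 3 at 100 kb on the left and the lowest above 500 kb on the right, where sweeps over 1 Mb hold 26.9% of its sequence, against 22.3% for teosinte–landrace and 20.2% for landrace–maize.

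Among chromosomes, chromosome 4 was covered most and chromosome 9 least. On chromosome 4, 192 sweeps with a median of 155 kb covered 21.7%, the highest share, the highest density (7.77 sweeps per 10 Mb) and the highest median length of the 10 chromosomes. Chromosome 9 carried 86 sweeps that covered 12.4%. Chromosomes 7, 10 and 5 followed chromosome 4 with 19.7%, 18.4% and 18.4%, and the remaining chromosomes lay between 12.7% and 14.8%.

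Chromosomes 4, 5 and 10 were the highest 3 in density and chromosomes 2 and 9 were low in both density and share, but on chromosome 7 the measures parted. It had the lowest density, 4.99 sweeps per 10 Mb, and the second highest covered share, with 56.6% of its sweep sequence in 6 sweeps over 1 Mb. Chromosome 1 had the most sweeps, 207, and a covered share of 13.2%, and its longest sweep was 1540 kb. Without sweeps over 1 Mb, chromosome 7 had 8.55% covered and chromosome 3 had 8.36%, the lowest of the 10, while chromosome 4 still had 16.2%. The single longest sweep was 26.6% of the sweep sequence of chromosome 7 and 19.4% of that of chromosome 3, so the covered shares of these chromosomes rest in large part on 1 call each. On chromosome 2 the longest sweep was 4.62% of the sweep sequence.

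The other comparisons ordered the chromosomes otherwise in places. Chromosome 1 was covered to 13.2% between teosinte and modern maize, to 18.02% between teosinte and landraces and to 17.9% between landraces and modern maize. Chromosome 7 was covered to 19.7% and 19.6% in the comparisons with teosinte and to 12.8% between landraces and modern maize. Chromosome 9 was covered to 12.4% and 9.88% in the comparisons with teosinte and to 15.3% between landraces and modern maize. Chromosome 4 had the highest share in all 3 comparisons.

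**Figure D2:**
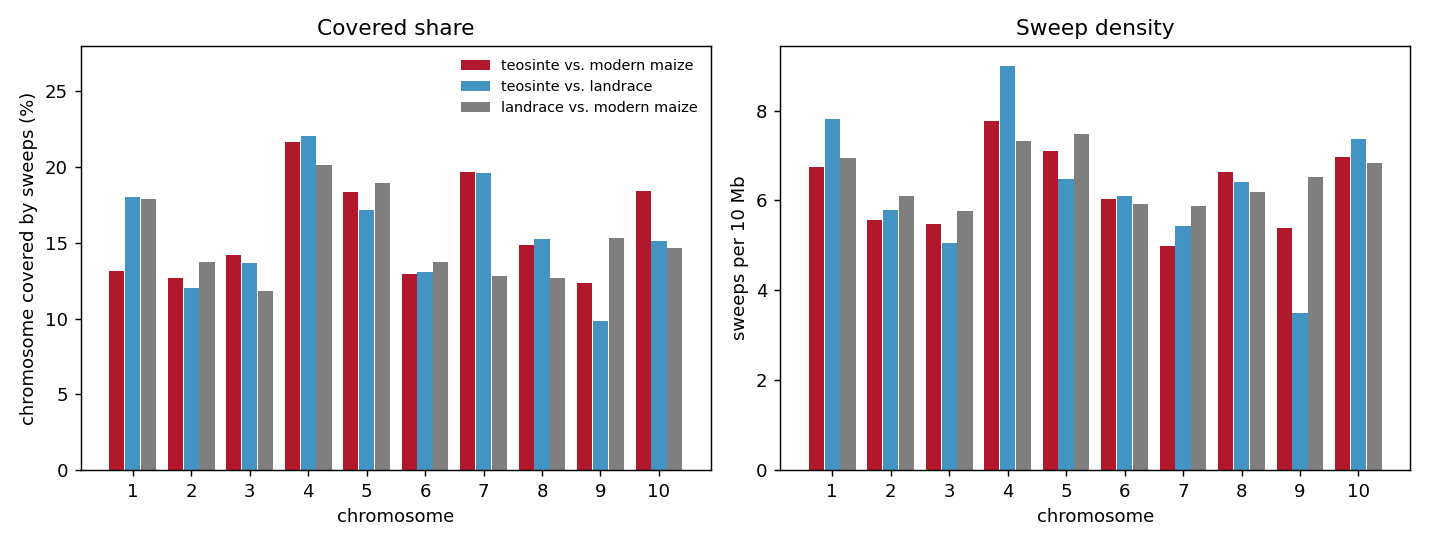
Percentage of each chromosome covered by sweeps (left) and sweeps per 10 Mb (right), 1 bar per comparison and chromosome. For teosinte against modern maize, chromosome 7 has the lowest density (4.99 per 10 Mb) and the second highest covered share (19.7%), after chromosome 4 (21.7%).

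The sweeps were concentrated before the middle of the chromosomes. Each chromosome was divided into 10 equal segments, numbered from its first base, and the values of each segment were pooled over the chromosomes. Sweeps covered 4.57% of segment 1, 38.8% of segment 4, 35.2% of segment 5 and 5.39% of segment 10. Segments 3 to 5 held 555 sweeps, 41.7% of the sweeps and 61.1% of the sweep sequence. Of the 46 sweeps longer than 1 Mb, 42 lay there, and segments 1 and 10 held none. The sweeps of the outer segments were shorter as well as fewer. The median length was 95 kb in segment 1 and 115 kb in segment 10, against 190 kb in segment 4 and 200 kb in segment 5. The median XP-CLR was also higher in segments 4 and 5, at 83.1 and 85.7, than in segments 1 and 10, at 72.7 and 77.1. Centromere positions and recombination rates were not analysed here.

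The same description held for single chromosomes with differences of degree. The most covered segment lay among segments 3 to 5 on 8 chromosomes and was segment 6 on chromosomes 5 and 8. It was covered to 94.1% on chromosome 7, to 67.7% on chromosome 4 and to 62.4% on chromosome 3, against 31.01% on chromosome 8 and 36.8% on chromosome 6. Between teosinte and landraces, segment 4 of chromosome 7 was covered to 93.2%, whereas between landraces and modern maize no segment of chromosome 7 exceeded 28.3%. The share of sweep sequence in segments 3 to 5 was 61.1% for teosinte against modern maize, 55.7% for teosinte against landraces and 45.3% for landraces against modern maize.

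**Figure D3:**
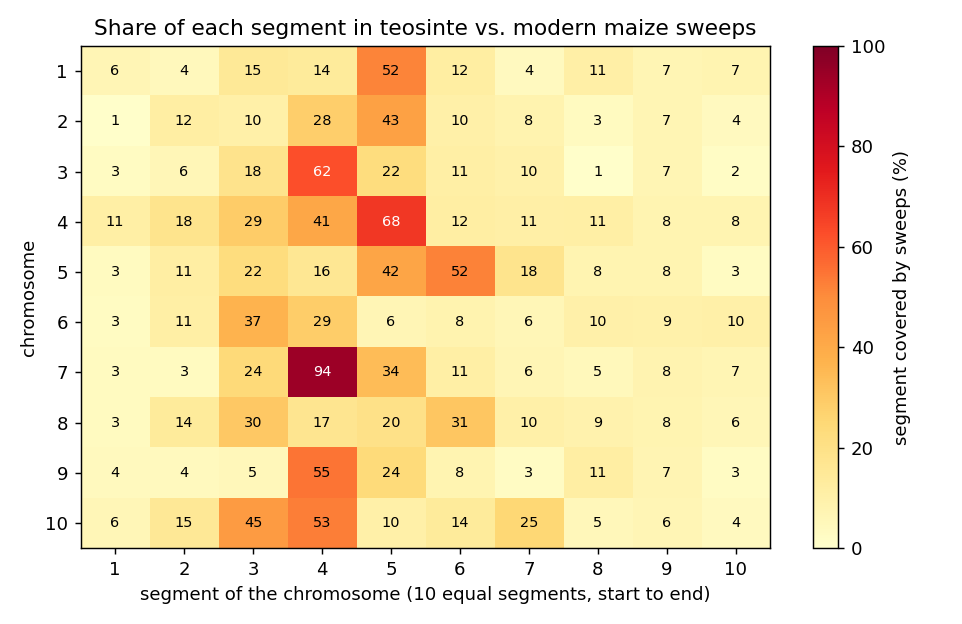
Percentage of each of 10 equal segments (x axis, from the first to the last base) of each chromosome (y axis) covered by teosinte–maize sweeps, given by colour and by the number in each cell. High values sit in segments 3 to 6, up to 94.1% in segment 4 of chromosome 7, and pooled segments 1 and 10 are covered to 4.57% and 5.39%.

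The 10 longest sweeps lay on 7 chromosomes, and all 10 were centred in segments 3 to 5. The longest, chr7:58790001-68335000, was 9545 kb long with an XP-CLR of 179, the rank of 21 among all teosinte–maize sweeps. A gap of 230 kb separated it from the next sweep toward the start of the chromosome, chr7:54265001-58560000, which was 4295 kb long with an XP-CLR of 190. Both belonged to the same cluster of 11 sweeps. The longest sweep held 7 CG, 13 CHG and 5 CHH differentially methylated regions (DMRs). Per Mb these were 0.733, 1.36 and 0.524, below the 1.29, 1.97 and 1.17 over all teosinte–maize sweeps. A DMR is a stretch in which cytosine methylation differed between teosinte and modern maize, and CG, CHG and CHH name the bases after the cytosine, with H for any base other than G.

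On chromosome 3, chr3:73260001-79785000 (6525 kb, XP-CLR 173) and chr3:70160001-73195000 (3035 kb, XP-CLR 184) were separated by a gap of 65 kb. The first of the 2 held 43 DMRs, the most of any teosinte–maize sweep, of which 16 were CG, 19 CHG and 8 CHH. Per Mb these were 2.45, 2.91 and 1.23. The longest sweep of chromosome 5, chr5:108600001-113150000, was 4550 kb long with an XP-CLR of 151 and held 14 CHH DMRs beside 3 in CG and 11 in CHG. Per Mb it held 3.08 in CHH, 0.659 in CG and 2.42 in CHG. The longest sweep of chromosome 9, chr9:58580001-61495000, was 2915 kb long with an XP-CLR of 128 and held 25 DMRs. Per Mb it held 2.74 in CG, 3.43 in CHG and 2.40 in CHH. The sweep table pairs none of these regions with a gene.

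The remaining 4 of the 10 longest were chr4:97645001-100290000 (2645 kb), chr4:88610001-91075000 (2465 kb), chr10:46925001-49345000 (2420 kb) and chr6:48405001-50760000 (2355 kb). Their XP-CLR was 157, 118, 179 and 174 in that order. The longest sweeps of the remaining chromosomes were chr8:42490001-44435000 (1945 kb), chr1:134730001-136270000 (1540 kb) and chr2:118200001-119625000 (1425 kb). The last of these had an XP-CLR of 191, above each of the 10 longest.

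At the places of the longest sweeps the other comparisons had sweeps of very different length. At chr7:58790001-68335000, the teosinte–landrace comparison had a sweep of 8740 kb and 1 further sweep, and the landrace–maize comparison had 2 sweeps of which the longer was 115 kb. At chr6:48405001-50760000 the order was the opposite, with no teosinte–landrace sweep and a landrace–maize sweep of 2645 kb. At chr9:58580001-61495000 both had long sweeps, of 1435 kb for teosinte–landrace and 3345 kb for landrace–maize. At chr10:46925001-49345000, where the teosinte–maize sweep was 2420 kb, the teosinte–landrace comparison had 2 sweeps of at most 145 kb and the landrace–maize comparison none. A long teosinte–maize sweep thus stood beside a long sweep in 1, in both or in neither of the other comparisons.

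The XP-CLR of the teosinte–maize sweeps ran between 60.8 and 387 with a median of 77.2 and quartiles of 66.9 and 96.9. The score is used here to describe only. Longer sweeps had higher scores. The median score was 69.6 in sweeps of 50 to 100 kb, 76.9 in those over 100 and up to 250 kb, 95.1 in those over 250 and up to 500 kb, 114 in those over 500 kb and up to 1 Mb, and 146 in those longer than 1 Mb. Spearman's rho between length and score was 0.534 over the 1330 sweeps, which share windows, SNPs and populations and are not independent. The paper's methods do not say how a merged sweep got its score, and the part of the merging in this relation was not tested.

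The highest scores did not belong to the longest sweeps. Scores of sweeps longer than 1 Mb lay between 89.2 and 195, and the 7 sweeps above 200 were all at most 1 Mb long. The highest score, 387, was that of chr9:137480001-137805000, which was 325 kb long, ranked 227 by length and stood alone, with a gap of 4620 kb before it. The next were chr8:165540001-165940000 (400 kb, XP-CLR 278) and chr3:194185001-194645000 (460 kb, XP-CLR 264). These 3 lay at 86.2%, 91.5% and 82.5% of the length of their chromosomes, far from the segments that held the longest sweeps. The next 2 were chr1:169615001-170215000 (600 kb, XP-CLR 227) and chr7:151855001-152135000 (280 kb, XP-CLR 208). Together these 5 sweeps held 4 DMRs, a CG DMR on chromosome 9, a CHH DMR on chromosome 8 and 2 CHG DMRs on chromosome 3.

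The 5 highest scores also had different partners in the other comparisons. At the highest-scoring sweep, the teosinte–landrace comparison had a sweep of XP-CLR 61.4 and the landrace–maize comparison none. At the sweep on chromosome 8 the teosinte–landrace score was 533. At chr1:169615001-170215000 the landrace–maize comparison had a sweep of 1110 kb with a score of 235, and the teosinte–landrace comparison one of 970 kb with 125. Scores of different comparisons come from different sets of plants and are not on a common scale.

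**Figure D4:**
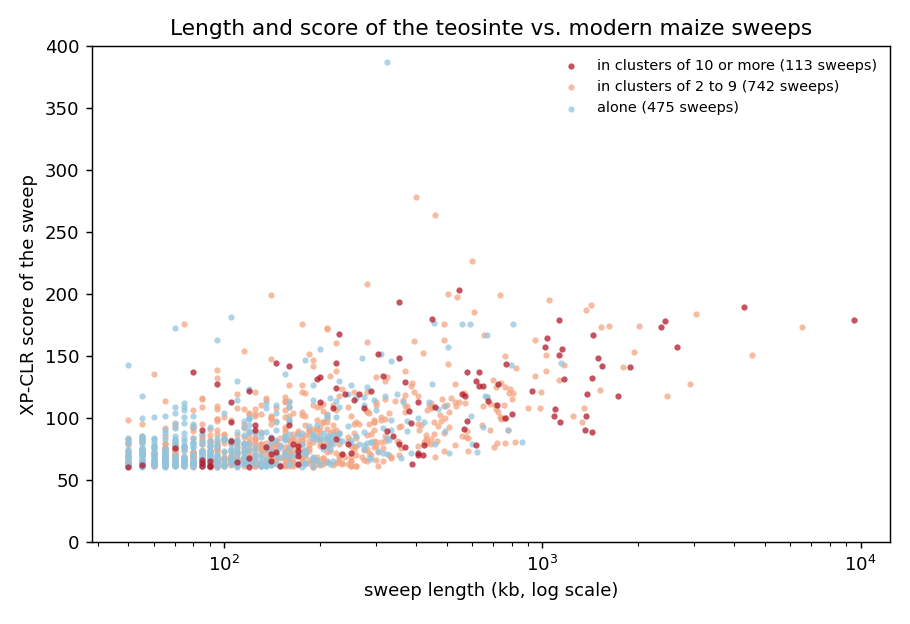
XP-CLR score against length (kb, log scale) of the 1330 teosinte–maize sweeps, coloured by whether the sweep stood alone, in a cluster of 2 to 9 or in a cluster of 10 or more sweeps. Scores above 200 belong to sweeps of at most 1 Mb, and sweeps of clusters of 10 or more have a median of 355 kb and an XP-CLR of 108, against 105 kb and 73.9 for sweeps that stood alone.

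Gaps between neighbouring sweeps ran between 50 kb and 17220 kb, with a median of 658 kb and a mean of 1304 ± 1787 kb (SD over 1320 gaps). A cluster was taken as a run of sweeps in which every gap was at most 500 kb. By this limit 855 sweeps, 64.3%, lay in 281 clusters of at least 2, and 475 stood alone. Most clusters were small, with 167 pairs and 66 groups of 3. The 8 clusters of 10 or more sweeps held 113 sweeps and 22.1% of the sweep sequence. The teosinte–landrace comparison had 66.6% and the landrace–maize comparison 64.1% of their sweeps in clusters, shares near the 64.3% of the teosinte–maize comparison.

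Counts of sweep starts per bin were also taken, and they depended on the bin. In bins of 1 Mb the variance of the number of sweep starts was 0.925 times the mean, and no bin held more than 4. In bins of 5 Mb it was 1.36 times the mean, with up to 10 starts in a bin. The mean was 0.630 starts per bin of 1 Mb. The shortest sweep and the smallest gap were both 50 kb, and the part of these limits or of long sweeps in the variance was not tested. The gaps themselves were uneven below 1 Mb, with 43.5% of them at most 500 kb and 25% at most 235 kb.

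Long sweeps lay next to other sweeps. The median distance to the nearest sweep was 72.5 kb for the 46 sweeps longer than 1 Mb, against 328 kb for the 1284 others. Of the long sweeps, 28 had a neighbour within 100 kb, which is 60.9%, against 17.1% of the others. All but 1 of the long sweeps had a neighbour within 500 kb. Of the 46, 42 lay in segments 3 to 5, which sweeps covered to 22.6%, 38.8% and 35.2%. The part of place, or of the merging of windows, in these distances was not tested. The exception to the limit of 500 kb was chr2:93625001-94770000, which was 1145 kb long with an XP-CLR of 144. The long neighbours named above on chromosomes 3 and 7, with gaps of 65 and 230 kb, were long sweeps with a near neighbour.

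The cluster with most sweeps, chr5:118075001-129495000, held 20 of them in 11.4 Mb, and its longest sweep was 1135 kb. Next came chr4:96475001-109090000 with 18 sweeps, chr10:39660001-54275000 with 16, chr1:126720001-136880000 with 15 and chr6:48405001-56310000 with 12. Sweeps filled 71.8% of the cluster on chromosome 5 and between 78.1% and 88.1% of the next 4. The cluster that spanned most sequence was another, chr7:54265001-76660000, with 11 sweeps in 22.4 Mb, of which sweeps filled 93.2%. The cluster chr3:70160001-80650000 had 4 sweeps that filled 98.2% of 10.49 Mb. These 7 clusters held 96 sweeps and 23.1% of the sweep sequence, and each was centred in segments 4 to 6 of its chromosome.

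Stretches without a teosinte–maize sweep were long as well. There were 58 stretches of at least 5 Mb, chromosome ends included, and together they held 461 Mb, 21.9% of the genome. The longest was the first 17.4 Mb of chromosome 2, chr2:1-17440000, in which the teosinte–landrace comparison had 3 sweeps and the landrace–maize comparison 6. Next was chr3:173860001-191080000 (17.2 Mb), with 6 and 13 sweeps of these comparisons. The stretches chr6:1005001-16610000 (15.6 Mb), chr5:170325001-185570000 (15.2 Mb) and chr10:111380001-123790000 (12.4 Mb) followed. The stretch on chromosome 5 had 2 sweeps in each of the other comparisons. DMRs between teosinte and modern maize lay in all 5 stretches, with 14 CG, 21 CHG and 10 CHH DMRs in that of chromosome 2 and 4, 2 and 5 in that of chromosome 5. All sequence outside sweeps held 0.630, 0.968 and 0.375 per Mb in CG, CHG and CHH. The stretch on chromosome 2 lay above these in each context, at 0.803, 1.20 and 0.573. That on chromosome 5 lay below, at 0.262, 0.131 and 0.328.

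DMRs between teosinte and modern maize were called from bisulfite libraries of 20 teosinte plants and of published modern maize lines. They played no part in the choice of the sweeps. The teosinte plants carry the same names as those sequenced for the sweeps, and the paper used the same modern lines for both. The bisulfite reads were mapped to references corrected with the SNPs of each plant or line. Sweeps and DMRs thus share plants and sequence data and are not separate sources. Of 1545 CG DMRs, 428 overlapped a teosinte–maize sweep, 27.7% with an exact 95% interval of 25.5 to 30.01%, beside the 15.8% of 5-kb steps of the genome that lay in a sweep. For CHG it was 655 of 2372, 27.6% (25.8 to 29.5%), and for CHH 390 of 1055, 37.0% (34.0 to 39.96%). These intervals cover counting error only, and DMRs that lie close together are not independent. All sequence was counted here, whereas the paper drew its random regions from mappable sequence. Mappability was thus not taken into account in these shares or in the densities. The DMR density inside and outside sweeps was 1.29 and 0.630 per Mb in CG, 1.97 and 0.968 in CHG, and 1.17 and 0.375 in CHH. The ratio was thus higher in CHH, 3.13, than in CG and CHG, 2.04 and 2.03. The methods state a cutoff of methylation difference for CG and CHG DMRs and none for CHH. The CHH DMRs were therefore called by criteria not known here, and values of CHH here and below are not like for like with the other contexts.

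The share of DMRs in sweeps was 1.75 times the covered share of the genome in CG, 1.75 times in CHG and 2.34 times in CHH, and these multiples of shares were smaller where the place along the chromosomes was taken into account. Where the covered share of each of the 100 segments of all chromosomes was weighted by its DMRs, 20.4% of CG, 20.2% of CHG and 22.1% of CHH DMRs would lie in sweeps by the covered share alone, and the observed shares were 1.36, 1.37 and 1.67 times these. Density was higher inside than outside sweeps on all 10 chromosomes in each context. The ratio ran between 1.53 and 2.49 in CG, between 1.81 and 2.698 in CHG and between 2.11 and 5.43 in CHH. Over the 10 pooled segments it was above 1 in all for CHG and CHH and in 9 for CG. The exception was segment 8, where CG DMRs lay at 0.383 per Mb inside sweeps and 0.559 per Mb outside, with 6 of 115 DMRs in sweeps. The ratio was also near 1 in neighbouring segments, at 1.16 in both segments 9 and 10 for CG. For CHG it was 1.03, 1.40 and 1.15 in segments 8, 9 and 10, and for CHH 3.15, 2.17 and 3.55.

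**Figure D5:**
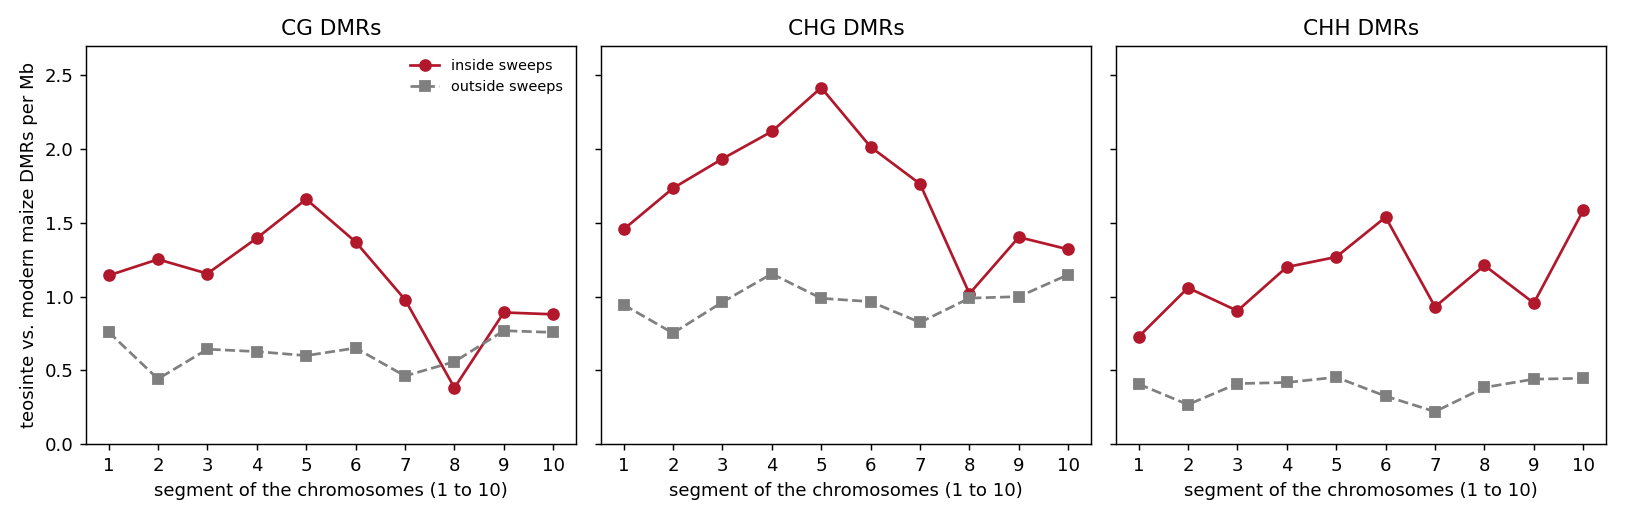
Teosinte–maize DMRs per Mb inside sweeps (red circles) and outside (grey squares) in each of 10 equal segments pooled over the chromosomes, 1 panel per methylation context. Density is higher inside in every segment for CHG and CHH and in 9 for CG, where segment 8 has 0.383 per Mb inside and 0.559 outside. In segment 8 CHG has 1.02 per Mb inside and 0.990 outside, a ratio of 1.03.

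DMR density was lower with each step away from the sweeps up to 2 Mb, and beyond 2 Mb it was no lower in any context. For CG, density was 1.29 per Mb inside sweeps, 0.921 within 100 kb of one, 0.664 between 100 and 500 kb, 0.535 between 500 kb and 2 Mb and 0.539 beyond. For CHH it was 1.17 inside, 0.579 within 100 kb, 0.380 between 100 and 500 kb, 0.306 between 500 kb and 2 Mb and 0.362 beyond. For CHG it was 1.96 inside with DMRs placed by their midpoint, then 1.35, 1.01, 0.834 and 0.897 in the same order. The sequence just outside the called sweeps was therefore intermediate, and the drop at the boundary was steeper in CHH than in CG. Within sweeps, DMRs did not gather in the middle. The middle 50% of sweep length held 47.0% of the CG DMRs in sweeps (42.2 to 51.8%), 47.9% of those in CHG (44.1 to 51.8%) and 44.6% of those in CHH (39.6 to 49.7%).

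Most sweeps held no DMR. At least 1 DMR lay in 433 of the 1330 sweeps, 32.6% (30.04 to 35.1%). A CG DMR lay in 231 sweeps (15.4 to 19.5%), a CHG DMR in 320 (21.8 to 26.5%) and a CHH DMR in 213 (14.1 to 18.1%). Sweeps with a DMR were longer, with a median of 280 kb against 105 kb for the 897 without, and a longer sweep has more room for one. The share with any DMR was 11.04% in sweeps of 50 to 100 kb, 27.6%, 61.6% and 88.6% in the next classes of length, and 95.7% in sweeps longer than 1 Mb. Shares for stretches of equal length outside sweeps were not taken, so these are not read as a trait of sweeps. The density per Mb was higher in long sweeps too. In CG it was 0.537 per Mb in sweeps of 50 to 100 kb, 0.888 in those up to 250 kb, 1.16 in those up to 500 kb, 1.81 in those up to 1 Mb and 1.71 in longer ones. The shortest class held only 19 CG DMRs in 35.4 Mb, and its 0.537 per Mb compares with 0.630 per Mb outside sweeps. In CHG it held 31 DMRs, at 0.876 per Mb against 0.968 outside. In CHH it held 20, at 0.565 against 0.375 outside. These counts are small, and whether the shortest sweeps differ from the sequence outside was not tested.

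Only 2 of the 46 sweeps longer than 1 Mb held no DMR, chr1:132975001-134125000 (1150 kb, XP-CLR 156) and chr3:89360001-90745000 (1385 kb, XP-CLR 119). How many stretches of such length outside sweeps hold none was not counted. At the other extreme, chr8:98015001-99060000 held 31 DMRs in 1045 kb, 7 in CG, 7 in CHG and 17 in CHH, or 16.3 CHH DMRs per Mb. Its XP-CLR was 195, the highest of the sweeps longer than 1 Mb. Without this sweep, the CHH density in the sweeps of chromosome 8 was 1.55 per Mb and its ratio to the sequence outside was 3.51, against 2.12 per Mb and 4.81 with it. The highest CHH ratio, 5.43, was that of chromosome 10, where 43 of 78 CHH DMRs lay in sweeps and 26 of these in the cluster chr10:39660001-54275000. Without that cluster the ratio was 3.77.

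DMRs of different contexts overlapped each other to different degrees within the sweeps. The same shares were not taken for DMRs outside sweeps, so whether they are particular to the sweeps was not tested. Of the CG DMRs in sweeps, 66.4% overlapped a CHG DMR, and 42.9% of the CHG DMRs overlapped a CG DMR. Only 4 CG DMRs overlapped a CHH DMR. CG and CHG methylation in maize mark largely the same silent sequence, whereas CHH methylation is laid down by RNA-directed DNA methylation, mostly near genes. By sweep, 98 held DMRs of all 3 contexts, with a median length of 713 kb. Another 97 held CG and CHG only, 94 held CHG alone, 77 CHH alone and 29 CG alone.

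Clustered sweeps held more DMRs per Mb than sweeps that stood alone. In CG the density was 1.48 per Mb in clusters of 10 or more, 1.39 in clusters of 2 to 9 and 0.814 in sweeps alone. In CHG it was 2.11, 2.18 and 1.28, and in CHH 1.32, 1.27 and 0.772. Sweeps in clusters of 10 or more were also longer, with a median of 355 kb against 145 kb in smaller clusters and 105 kb alone. Density by cluster size was not taken within classes of length or segments. The parts of cluster size, length and place along the chromosome were therefore not separated.

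A short sweep toward the end of chromosome 1 held the DMR upstream of teosinte branched1 (tb1), which encodes a TCP transcription factor that represses the growth of side branches and is the classic domestication gene of plant architecture. The sweep, chr1:270480001-270595000, was 115 kb long, ranked 745 by length and had an XP-CLR of 67.2. It was the first of a cluster of 3, followed by chr1:270700001-270795000 (95 kb, XP-CLR 66.7) and chr1:271115001-271220000 (105 kb, XP-CLR 68.4). It held a CG DMR at chr1:270512522-270513056 and a CHG DMR at chr1:270512590-270513043, which overlapped it, and no CHH DMR. Its rank of 990 by score placed this sweep below the middle of the set by both length and score. The landrace–maize comparison had a sweep of 100 kb with an XP-CLR of 79.5 at the same start, and the teosinte–landrace comparison had none there.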

How the data were processed

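The authors mapped WGS reads to B73 AGPv4 and called SNPs, for which the submitters' processing notes name BWA, Picard and GATK 4. They scored sliding windows of 50 kb, with a fixed number of SNPs assayed in each, with XP-CLR at steps of 5 kb. Neighbouring windows in the upper tail were merged and outliers kept, by a stated fraction far smaller than the share of sequence that the deposited sweeps cover. How that fraction was applied is not clear. The deposited sweep table gives a chromosome, start, end, comparison and XP-CLR score for each sweep, with starts counted from 1. DMRs were deposited as positions with a context and a comparison, called by the authors between populations from bisulfite reads. Nothing read here says from where DMR starts count, and 0 was assumed. No file used here holds reads or depth per plant. An AGPv4 genome or annotation was not used here, so no gene content or sequence is given.

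Lengths, gaps, clusters (gaps of at most 500 kb), covered shares (each base counted once), counts per bin and overlaps with DMRs (at least 1 bp) were computed in Python 3.11.15 with pandas 2.3.3, numpy 2.4.6 and scipy 1.17.1, and drawn with matplotlib 3.10.9. Chromosome ends were the largest positions in the deposited tables. Class limits of length belong to the shorter class. Intervals are exact 95% binomial ones, or of order statistics for medians, and cover counting error only. No test was made, since regions are not replicates and plants have no values. The functions were tested on simulated intervals. The regions named are the 10 longest sweeps, the 5 with the highest score, the longest of each chromosome, the 5 clusters with most sweeps and the 5 of widest span, the 5 longest stretches without a sweep, the 5 sweeps with most DMRs and the one that holds the tb1 DMR, which was found by the length that the study gives for it. Others, such as the long sweeps without a DMR or alone, were chosen after their values were seen. The sweeps described here and these lists were chosen with earlier results of these data known. Alternatives were the sweeps at or above the median score, those of at most 1 Mb, other limits for gaps and bins, joined sweeps, other chromosome ends and other rules for DMR overlap.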

Additional observations from a re-analysis of the deposited data

How the results depend on the processing

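Keeping the sweeps at or above the median XP-CLR left 665 sweeps that covered 11.95% of the genome in place of 15.8%. Their median length was 205 kb in place of 130 kb, 49.5% lay in clusters in place of 64.3%, and 26.9% held a CG DMR in place of 17.4%. Counting each chromosome between its first and last sweep gave a covered share of 16.2%. Sweeps of at most 1 Mb covered 11.5%, and 17.8% of CG DMRs lay in them. A gap limit of 250 kb put 42.6% of sweeps in clusters and one of 1 Mb put 81.4%, so the share in clusters follows the limit chosen, while the number of clusters was 215 and 277 against 281. The variance of sweep starts was 1.36 times the mean in bins of 5 Mb, against 0.925 times in bins of 1 Mb. Joining sweeps across gaps of at most 100 kb moved the median length to 135 kb. The share of sweeps with a CG DMR stayed at 17.4% with only DMRs wholly inside a sweep, or with their starts counted from 1, and that with a CHG DMR was 23.9% with DMRs wholly inside. No paired analysis was possible because the regions were called between whole populations and no result comes from a test. Depth per plant was not analysed here, so how it limits the number of sweeps is unknown.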
